A study of Homo sapiens with 2 samples.

Results

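The zinc finger genes of human chromosome 19 were examined in chromatin immunoprecipitation and sequencing (ChIP-seq) of TCF19 in Ishikawa cells, an established line from an endometrial cancer. They were taken as the RefSeq protein-coding genes of chromosome 19 whose symbol is ZNF or ZFP followed by digits only. This gave 245 genes, 240 named ZNF and 5 named ZFP, of 1451 protein-coding genes on chromosome 19 and 19974 on chromosomes 1 to 22 and X. One population carried a lentivirus that overexpresses TCF19, and the control cells a negative control lentivirus; both were selected with puromycin, and both were precipitated with the same antibody against TCF19. The control cells had no lentiviral TCF19 but kept their own TCF19 gene. Each group had 1 library, so the values below describe 2 libraries, have no replicate check and carry no test of the condition. The promoter that drives the lentiviral TCF19, and whether the selected cells were a pool or a clone, are items not given in the sources used here.

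Most of these genes encode proteins with a KRAB domain and a row of C2H2 zinc fingers. The fingers bind DNA, often within transposable elements, and the KRAB domain recruits the scaffold protein TRIM28, which brings the histone methyltransferase SETDB1 and HP1 proteins and so silences chromatin. The genes arose by repeated tandem duplication and lie in dense clusters along the chromosome. The far ends of many of them are known to carry silent chromatin themselves, placed there in part by ZNF274, which is itself encoded in one of the clusters. TCF19 has a PHD finger, a module that reads histone tails, and acts in the nucleus.

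The peak lists held 112212 summits with TCF19 overexpression and 170334 in control, of which 3968 with TCF19 overexpression and 3925 in control lay on chromosome 19. A summit is the highest point of a called peak, and its pileup is the number of reads stacked there; these read numbers were solved from the deposited peak statistics. On chromosome 19 the median pileup was 16 reads with TCF19 overexpression and 14 in control. The genome-average pileup, which stands for depth, was 1.43 reads with TCF19 overexpression and 1.58 in control. Intervals after pileups are exact 95% Poisson intervals and those after shares are 95% Wilson intervals; both cover counting error only, since reads without molecular identifiers are not independent molecules. The TCF19 gene itself, on chromosome 6, held 3 summits with TCF19 overexpression, the highest at 143 reads, and 0 summits in control. Reads from the lentiviral TCF19 could be placed there too, and their part in these summits was not tested. The zinc finger genes are near-copies of one another, and how reads that match several places were treated is not given in the sources used here; its effect on single genes was not tested.

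The start-side sequences of the genes give the setting for the peaks described below. RefSeq promoter windows of GRCh38.p14, 300 bases long and running from 250 bases before a start to 50 bases after it, were at hand within 50 bp of the outer gene end for 177 of the 245 genes. Start summits lay a median of 203 bp into the gene with TCF19 overexpression and 234 bp in control, so most lay beyond such windows. The first set shows ZNF772 (minus strand, chr19:57477517-57477816), ZNF530 (plus, chr19:57599635-57599934), ZNF726 (plus, chr19:23914636-23914935) and ZNF551 (plus, chr19:57681727-57682026), whose start summits stood high in both peak lists. Each is written 5′ to 3′ on the gene's strand, with CCGGAAG, the core of an ETS-type site, and its reverse complement CTTCCGG in capitals.
ZNF772: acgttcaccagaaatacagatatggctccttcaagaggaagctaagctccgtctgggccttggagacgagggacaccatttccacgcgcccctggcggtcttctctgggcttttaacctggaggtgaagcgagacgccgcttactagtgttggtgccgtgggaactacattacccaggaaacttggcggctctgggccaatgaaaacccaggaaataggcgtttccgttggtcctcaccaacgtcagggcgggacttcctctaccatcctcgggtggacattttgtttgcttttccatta
ZNF530: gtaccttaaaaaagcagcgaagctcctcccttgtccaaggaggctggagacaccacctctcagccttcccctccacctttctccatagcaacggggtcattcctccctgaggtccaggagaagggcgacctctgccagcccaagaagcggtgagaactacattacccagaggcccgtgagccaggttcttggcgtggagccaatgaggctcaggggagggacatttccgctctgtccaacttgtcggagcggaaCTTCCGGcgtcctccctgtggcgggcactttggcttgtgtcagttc
ZNF726: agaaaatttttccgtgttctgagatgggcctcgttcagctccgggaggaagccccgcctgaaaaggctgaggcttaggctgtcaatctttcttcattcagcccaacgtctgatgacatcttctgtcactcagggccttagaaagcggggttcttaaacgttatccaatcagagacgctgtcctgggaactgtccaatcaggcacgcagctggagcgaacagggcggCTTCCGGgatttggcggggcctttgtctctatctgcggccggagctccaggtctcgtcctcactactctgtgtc
ZNF551: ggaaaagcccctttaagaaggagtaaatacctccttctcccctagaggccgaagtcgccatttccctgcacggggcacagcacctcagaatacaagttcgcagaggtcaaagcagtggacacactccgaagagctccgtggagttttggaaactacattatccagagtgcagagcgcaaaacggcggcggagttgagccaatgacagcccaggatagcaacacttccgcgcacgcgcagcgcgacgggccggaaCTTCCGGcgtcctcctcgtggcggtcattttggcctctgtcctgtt

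The next set holds the windows with the most copies of that motif, ZNF787 (minus, chr19:56121246-56121545) with 3 and, as 1 of 9 windows with 2, ZNF256 (minus, chr19:57947657-57947956). An overlapping CTTCCGGAAG counts once on each strand.
ZNF787: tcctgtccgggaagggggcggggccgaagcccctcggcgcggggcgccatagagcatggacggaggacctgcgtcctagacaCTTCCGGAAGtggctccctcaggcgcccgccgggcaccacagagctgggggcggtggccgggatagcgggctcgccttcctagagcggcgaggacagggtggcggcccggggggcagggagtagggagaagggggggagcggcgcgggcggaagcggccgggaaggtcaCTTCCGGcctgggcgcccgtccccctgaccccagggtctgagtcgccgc
ZNF256: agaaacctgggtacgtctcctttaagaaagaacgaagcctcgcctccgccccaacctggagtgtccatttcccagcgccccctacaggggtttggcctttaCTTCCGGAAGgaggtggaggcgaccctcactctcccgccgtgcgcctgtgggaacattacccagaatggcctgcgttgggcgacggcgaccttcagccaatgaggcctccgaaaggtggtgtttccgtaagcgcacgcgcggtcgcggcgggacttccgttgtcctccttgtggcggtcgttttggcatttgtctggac

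The last set holds windows rich in CpG whose genes had no start summit in either library, ZNF628 (plus, chr19:55476367-55476666) with 36 CpG and ZNF324 (plus, chr19:58466830-58467129) with 35.
ZNF628: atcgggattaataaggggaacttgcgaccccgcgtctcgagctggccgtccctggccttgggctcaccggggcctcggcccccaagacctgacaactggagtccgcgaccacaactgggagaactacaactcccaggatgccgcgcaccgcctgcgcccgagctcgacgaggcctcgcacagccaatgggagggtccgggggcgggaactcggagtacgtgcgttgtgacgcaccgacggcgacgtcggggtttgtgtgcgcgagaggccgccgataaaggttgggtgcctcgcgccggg
ZNF324: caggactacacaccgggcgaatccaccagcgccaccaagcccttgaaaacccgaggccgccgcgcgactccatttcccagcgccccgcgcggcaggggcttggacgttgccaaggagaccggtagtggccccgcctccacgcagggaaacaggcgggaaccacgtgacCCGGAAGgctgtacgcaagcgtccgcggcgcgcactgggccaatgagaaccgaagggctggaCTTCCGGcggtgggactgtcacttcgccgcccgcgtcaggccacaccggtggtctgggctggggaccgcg

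The ETS-type motif was common in these promoters. Searched on both strands, CCGGAAG was found in 77 of the 177 windows of chromosome 19 zinc finger genes (43.5%, 36.4 to 50.9), in 13.2% of the windows of other chromosome 19 genes, in 36.2% of the windows of ZNF and ZFP genes on other chromosomes, and in 14.5% of all 13832 windows (2011). Single copies accounted for 67 of the 77 windows. The motif was unevenly spread along the chromosome: it was in 17 of 24 windows (70.8%) in the fourth cluster, counted from the short-arm end, in 18 of 29 (62.1%) in the eighth and in 27 of 43 (62.8%) in the ninth, but in 2 of 21 (9.52%) in the third and 4 of 20 (20.0%) in the sixth. Of 5 other motifs searched on both strands, CCAAT was in 52.0% of these windows against 37.1% of all windows, and GGGCGG in 66.7% against 58.5%. A YY1-type motif was in 2.26% against 2.02% of all windows, an NRF1-type motif in 3.39% against 1.84%, and the CRE letters TGACGTCA in 3.95% against 2.70%. A match describes the letters and is not a measured binding site.

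**Figure D1:**
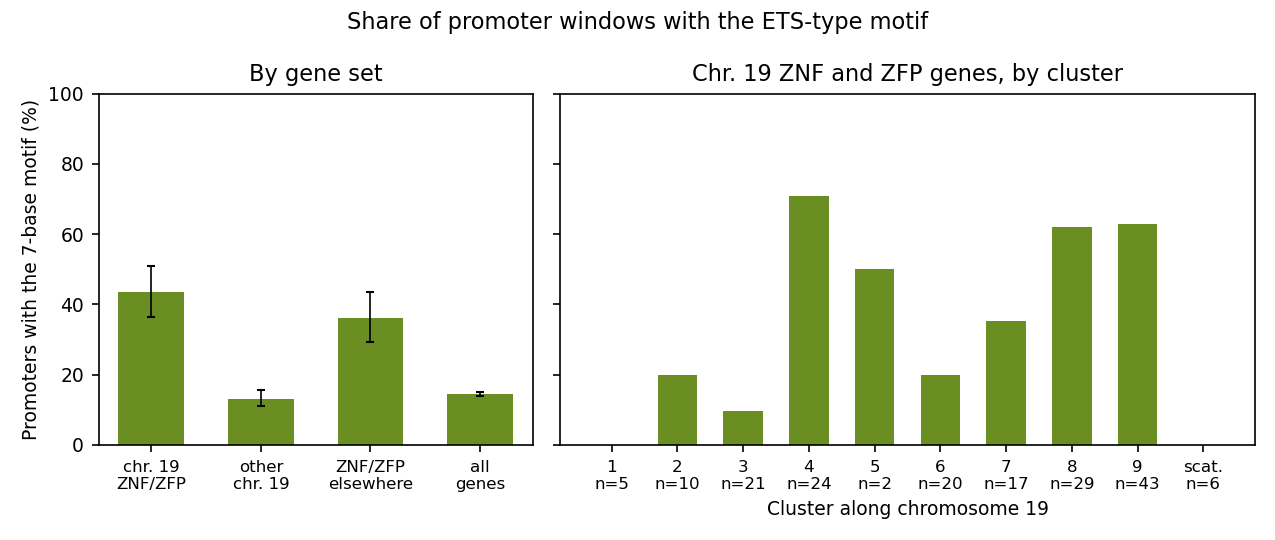
Percent of 300-base promoter windows that hold CCGGAAG on either strand, by gene set (left, with 95% Wilson intervals) and, for the chromosome 19 ZNF and ZFP genes, by cluster (right; n is the number of windows). The chromosome 19 zinc finger genes reach 43.5% against 13.2% for the other genes of the chromosome, and the fourth, eighth and ninth clusters stand above 60 percent.

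Genes whose windows held the motif had start summits at shares whose intervals overlapped those of genes whose windows lacked it. A start summit here lay within 1000 bp of the start and could lie outside the window. Of the 77 with CCGGAAG, 75.3% (64.6 to 83.6) had a start summit with TCF19 overexpression and 62.3% (51.2 to 72.3) in control. Of the 100 without it, 69.0% (59.4 to 77.2) had one with TCF19 overexpression and 50.0% (40.4 to 59.6) in control. Over all protein-coding genes, 79.7% of windows with the motif had a start summit with TCF19 overexpression and 59.0% in control, against 61.5% of windows without it with TCF19 overexpression and 50.3% in control. The count of CpG did not part the zinc finger promoters with a summit from those without. With TCF19 overexpression the median was 20 CpG in both, and in control it was 20 with a summit and 21 without. Over all genes the median with TCF19 overexpression was 26 with a summit and 7 without, and in control 26 with a summit and 15 without.

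A summit within 1000 bp of at least 1 gene end was present at 168 of the 245 zinc finger genes with TCF19 overexpression (68.6%, 62.5 to 74.1) and at 149 in control (60.8%, 54.6 to 66.7). The same count over all protein-coding genes gave 64.8% with TCF19 overexpression and 54.6% in control, which lies within the interval of the zinc finger genes with TCF19 overexpression and at its lower bound in control. Other genes of chromosome 19 had fewer, 49.3% with TCF19 overexpression and 29.8% in control, while ZNF and ZFP genes of other chromosomes reached 78.0% with TCF19 overexpression and 62.4% in control. The lists overlapped at 120 genes (49.0%, against 48.8% of all genes), which is 71.4% of those marked with TCF19 overexpression and 80.5% of those marked in control. A further 48 genes were marked with TCF19 overexpression alone (19.6%, against 16.0% of all genes), 29 in control alone (11.8%, against 5.84%) and 48 in neither list (19.6%, against 29.4%). When the control list was cut to the 112212 summits of highest fold, so that both lists were equally long, control marked 95 of the genes (38.8%, against 34.5% of all genes and 9.53% of other chromosome 19 genes).

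The local background differed between the zinc finger genes and the rest of the chromosome, and its part in these shares was not tested. At start summits it had a median of 1.81 times the genome average with TCF19 overexpression and 1.69 times in control at the zinc finger genes, against 2.86 times with TCF19 overexpression and 2.73 times in control at other chromosome 19 genes. The summits at zinc finger gene ends were low. With TCF19 overexpression 213 summits had pileups of 6 to 26 reads with a median of 14, and in control 186 summits had 6 to 28 reads with a median of 13. Their fold enrichment over local background, which is the authors' value and is used only within its own list, reached 6.90 with TCF19 overexpression and 6.58 in control.

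Lower and higher gene ends were alike, and the difference between ends appeared once strand was used. The lower end, by coordinate, had a summit at 92 genes with TCF19 overexpression (37.6%, against 36.1% of all genes) and at 85 in control (34.7%, against 31.1%). The higher end had one at 88 genes with TCF19 overexpression (35.9%, against 36.1%) and at 82 in control (33.5%, against 30.3%). Both ends were marked at 12 genes with TCF19 overexpression (4.90%, against 7.40%) and at 18 in control (7.35%, against 6.83%). Strand was known for 213 of the genes, 115 on the plus strand and 98 on the minus strand. Of these, 139 had a start summit with TCF19 overexpression (65.3%, 58.6 to 71.3; 62.3% of all genes) and 109 in control (51.2%, 44.5 to 57.8; 50.4% of all genes). Both libraries marked the start of 90 genes (42.3%, against 45.8% of all genes), TCF19 overexpression alone 49 (against 16.5% of all genes), control alone 19 (8.92%, against 4.56%) and neither 55 (25.8%, against 33.2%). With lists of equal length, control marked 70 starts (32.9%, against 32.5% of all genes).

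Gene stops showed the opposite order of the libraries. A stop summit was present at 17 of the 213 genes with TCF19 overexpression (7.98%, 5.04 to 12.4; 11.4% of all genes) and at 33 in control (15.5%, 11.2 to 21.0; 12.3% of all genes). The stop was marked in both libraries at 10 genes (4.69%, against 5.87% of all genes), with TCF19 overexpression alone at 7 (3.29%, against 5.53%) and in control alone at 23 (10.8%, against 6.47%). Start and stop were both marked at 10 genes with TCF19 overexpression (4.69%, against 7.39%) and at 14 in control (6.57%, against 6.87%). Other chromosome 19 genes had the reverse, 18.2% with TCF19 overexpression and 12.4% in control. With lists of equal length, control marked 21 zinc finger stops (9.86%, 6.39% of all genes), and the intervals for stops in the 2 libraries overlapped in the full lists as well.

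Around the 186 genes of at least 10 kb with known strand, summits were packed just inside the start. The first 1000 bp after the start held 65.1 summits per 100 genes (54.0 to 77.7) with TCF19 overexpression and 47.3 (37.9 to 58.3) in control. The last 1000 bp before the start held 21.5 (15.4 to 29.3) with TCF19 overexpression and 10.2 (6.15 to 16.0) in control. From 1000 to 5000 bp into the gene the density was 4.30 summits per kb and 100 genes with TCF19 overexpression and 5.65 in control, so the start peak was narrow in both libraries. Over all protein-coding genes of that length the first 1000 bp held 66.0 summits per 100 genes with TCF19 overexpression and 50.1 in control. These values were close to the zinc finger genes. The last 1000 bp before the start held 33.3 with TCF19 overexpression and 23.9 in control over all these genes, above the zinc finger intervals. Start summits lay a median of 203 bp into the gene with TCF19 overexpression and 234 bp in control, and 75.7% of them with TCF19 overexpression and 81.8% in control were at or inside the gene's edge. At the stop there was no such peak: the last 1000 bp of the gene held 4.30 (1.86 to 8.47) summits per 100 genes with TCF19 overexpression and 8.60 (4.92 to 14.0) in control, and the first 1000 bp beyond it held 4.30 (1.86 to 8.47) with TCF19 overexpression and 9.14 (5.32 to 14.6) in control.

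**Figure D2:**
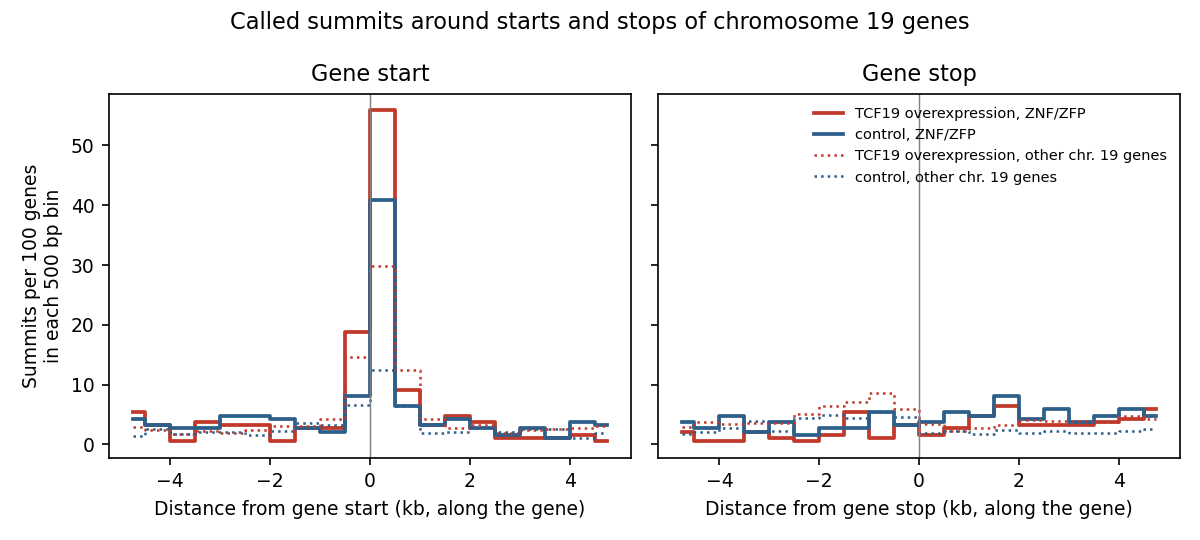
Called summits per 100 genes in bins of 500 bp around gene starts (left) and stops (right) for genes of at least 10 kb, with distance in kb counted along the gene; solid lines are the 186 chromosome 19 ZNF and ZFP genes, dotted lines the 585 other chromosome 19 genes. In the first bin after the start the zinc finger genes reach 55.9 summits with TCF19 overexpression and 40.9 in control, while no peak of that kind stands at the stop.

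With TCF19 overexpression, the 10 genes of highest fold were marked at their start wherever the strand is known. ZNF530 (chr19:57599885-57612722) led the TCF19 overexpression list by fold (6.90) and had 24 reads (15.4 to 35.7) with TCF19 overexpression, against 16 (9.15 to 26.0) in control. ZNF726 (chr19:23914886-23944714) had 18 reads (10.7 to 28.4) with TCF19 overexpression, against 13 (6.92 to 22.2) in control. ZNF772 (chr19:57469586-57477566) had 17 reads (9.90 to 27.2) with TCF19 overexpression, against 14 (7.65 to 23.5) in control. These 3 genes, whose promoters are printed above, were among the 10 of highest fold in both lists, and at each the counting intervals of the libraries overlapped. The rest of the top 10 with TCF19 overexpression were ZNF45 (17 reads), ZNF254 (22), ZNF471 (18), ZNF90 (17), ZNF460 (24), ZNF805 (26) and ZNF134 (19). ZNF805 (chr19:57240632-57262728), at 26 reads (17.0 to 38.1) 126 bp into the gene with TCF19 overexpression, had the highest pileup of any zinc finger gene end in that list and no end summit in control.

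Control's own top 10 held more stops. ZNF573 (chr19:37738302-37779586) had no end summit with TCF19 overexpression, against 16 reads (9.15 to 26.0) in control, beyond its stop and of the highest fold among these gene ends in the control list (6.58). ZNF528 (chr19:52397849-52418401) had 7 reads (2.81 to 14.4) near its stop with TCF19 overexpression, against 14 (7.65 to 23.5) in control. ZNF737 (chr19:20530276-20565781) had 19 reads (11.4 to 29.7) with TCF19 overexpression and 18 (10.7 to 28.4) in control, at places 5 bp apart beyond its stop. The stop summit of ZNF737 had nearly the same pileup in both libraries, and that of ZNF528 was lower with TCF19 overexpression by counts whose intervals overlapped. The others were start summits of ZNF470 (13 reads with TCF19 overexpression, 15 in control), ZNF549 (16 with TCF19 overexpression, 20 in control) and ZNF551 (17 with TCF19 overexpression, 19 in control), and ZNF729, without known strand, whose lower end had 8 reads with TCF19 overexpression and 16 in control.

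Genes marked in 1 list alone had pileups in the range of the rest. The 48 marked with TCF19 overexpression alone had pileups of 7 to 26 reads with a median of 14, and the 29 marked in control alone had 7 to 20 reads with a median of 12. For each, the chance that the other library would call a summit of equal height was computed from the summit's own pileup and background. It used the other library's depth and lowest −log10 p-value. The chance reached 0.95 for 29 of the 48 genes marked with TCF19 overexpression alone and for 5 of the 29 marked in control alone. These 5 were ZNF708, ZNF100, ZNF565, ZNF573 and ZNF665. The lowest −log10 p-value was 3.0052 with TCF19 overexpression and 2.8218 in control, so a call in control needed less. The same chance was not computed over all genes, so the 2 counts have no background to be set against. By fold, the TCF19 overexpression list was led, after ZNF90 and ZNF805, by ZNF266 (17 reads), ZNF616 (16), ZNF260 (19), ZNF432 (12), ZNF699 (13), ZNF846 (15), ZNF430 (14) and ZNF792 (17), all at gene starts. In control, ZNF565 had 20 reads at the stop, with a further summit at its start, and ZNF708 had 12 at the stop, while ZNF100 had 12 at the start, as did ZNF222 with 11. ZNF749 (14 reads), ZNF550 (10) and ZNF578 (11) were marked at the stop in control, and ZNF665 (18) and ZNF99 (11) at an end whose side is not known. Because summits are picked as local maxima and the other library's background was not used, these chances can be too high.

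Where both libraries had a summit at nearly the same base of a zinc finger gene end, most such pairs were higher with TCF19 overexpression. There were 64 such pairs within 100 bp, with a median pileup of 16 reads with TCF19 overexpression and 13 in control. The log2 ratio of pileups, scaled to depth by the genome average, had a median of 0.31 (0.15 to 0.47, from the order of the values), ran from -0.85 to 0.94 and was above 0 in 51 pairs (79.7%). Over the gene ends of all protein-coding genes, 4684 pairs had a median of 0.34 with 78.1% above 0, so the zinc finger genes were near the background. All 41014 pairs on chromosomes 1 to 22 and X, at any place, had a median of 0.15 with 58.7% above 0. Equal pileups already give 0.15 by this scaling, as at ZNF177 with 16 reads in each library. Other chromosome 19 genes had a median of 0.15 over 112 pairs with 61.6% above 0, and pairs inside the zinc finger genes had 0.04 (-0.07 to 0.15) over 94. At no pair of a gene end were the counting intervals of the libraries apart at equal depth (0 of 65, a pair shared by 2 genes counted for each).

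Of the 5 pairs with the highest ratios, 4 were at gene starts. ZNF627 (chr19:11597483-11619161) had 19 reads (11.4 to 29.7) with TCF19 overexpression and 11 (5.49 to 19.7) in control, a log2 ratio of 0.94. ZNF235 had 18 reads with TCF19 overexpression and 11 in control (0.86), and ZNF527 had 14 with TCF19 overexpression and 9 in control (0.78). ZNF709 at its start and ZNF607 at its stop each had 18 reads with TCF19 overexpression and 12 in control (0.73). The lowest was the ZNF528 stop given above, at -0.85. Below 0 were also ZNF816 (7 reads with TCF19 overexpression, 11 in control), ZNF66 (7 with TCF19 overexpression, 10 in control) and the summit shared by ZNF382 and ZNF529 (9 with TCF19 overexpression, 14 in control).

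**Figure D3:**
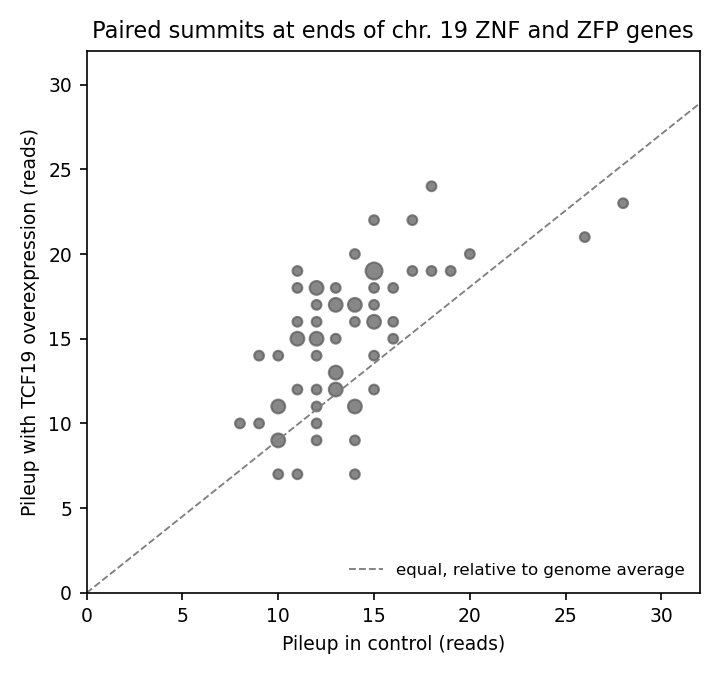
Pileup in reads with TCF19 overexpression (vertical) against control (horizontal) for the 64 summit pairs within 100 bp at ends of chromosome 19 ZNF and ZFP genes; a larger point holds several pairs, and the dashed line is equality relative to each library's genome average. Most points, 51 of 64, lie above the line, at pileups under 30 reads.

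Neighbouring genes shared summits. With TCF19 overexpression 10 summits lay within reach of 2 zinc finger genes at once, and in control 4 did. ZNF382 and ZNF529, which start on opposite strands with their starts overlapping, shared 3 summits of 9 to 10 reads with TCF19 overexpression and 1 of 14 reads in control. ZNF568 and ZNF829 shared summits of 11 and 13 reads with TCF19 overexpression and 1 of 8 reads in control. ZNF490 and ZNF791 shared summits of 13 and 18 reads with TCF19 overexpression and had no shared summit in control. Counting a summit only for its nearest gene end left 163 marked genes with TCF19 overexpression and 143 in control.

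A gap of more than 1 Mb between neighbours split the genes into 9 clusters of at least 5 and 10 scattered genes. The clusters spanned 16.9 Mb in all. The ninth, with the most genes, ran from 55.5 to 58.5 Mb and held 58, from ZNF628 to ZNF446; 41 had an end summit with TCF19 overexpression (70.7%, 58.0 to 80.8) and 43 in control (74.1%, 61.6 to 83.7), and 38 were the same genes. The eighth (51.6 to 53.6 Mb, 39 genes) had 28 with TCF19 overexpression (71.8%) and 24 in control (61.5%). The fourth (19.7 to 24.1 Mb, 37 genes), next to the centromere, had 24 in each library (64.9%), and 17 of them were marked in both.

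In the full lists the widest gap between the libraries was in the second cluster, from 7.07 to 9.79 Mb. There 11 of 15 genes had an end summit with TCF19 overexpression (73.3%, 48.0 to 89.1) and 5 in control (33.3%, 15.2 to 58.3), with intervals that overlapped. ZNF317, ZNF699, ZNF559, ZNF266, ZNF426 and ZNF846 were marked with TCF19 overexpression alone, and 0 genes in control alone. The third cluster (11.5 to 12.6 Mb) had 20 of 25 with TCF19 overexpression (80.0%) and 15 in control (60.0%), and the sixth (36.2 to 37.8 Mb) 21 of 27 with TCF19 overexpression (77.8%) and 17 in control (63.0%). The seventh (43.5 to 45.1 Mb) had 13 of 24 with TCF19 overexpression (54.2%) and 11 in control (45.8%); 9 of its genes, ZNF155, ZNF230, ZNF223, ZNF225, ZNF226, ZNF227, ZNF112, ZNF404 and ZNF576, were marked in neither list. The first and the fifth, of 5 genes each, had 2 marked in each library. The highest end summits by fold within a cluster included ZNF555 in the first (18 reads with TCF19 overexpression, 14 in control), ZNF441 in the third (15 with TCF19 overexpression, 16 in control) and ZNF577 in the eighth (13 with TCF19 overexpression, 12 in control). In the second, ZNF561 had a start summit of 12 reads with TCF19 overexpression and 12 in control, and control had a further summit of 14 reads near its stop. In the fifth, ZNF792 had 17 reads with TCF19 overexpression and no end summit in control, and ZNF599 had no end summit with TCF19 overexpression and 8 reads in control. With lists of equal length, a cut that could only lower control, control marked 4 genes in the second cluster (26.7%) and 7 in the third (28.0%). Control then marked 17 in the fourth, 13 in the sixth, 6 in the seventh, 16 in the eighth and 27 in the ninth. Of the 58 genes of the ninth cluster 12 were unmarked in both lists, among them ZNF628 and ZNF324, whose promoters are printed above.

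**Figure D4:**
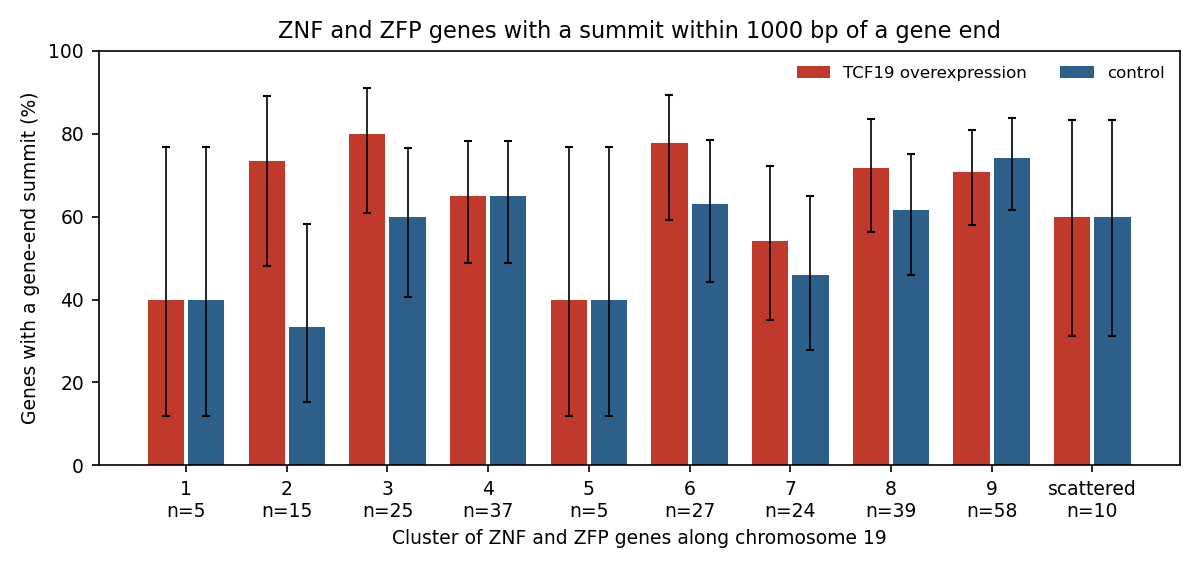
Percent of chromosome 19 ZNF and ZFP genes with a summit within 1000 bp of a gene end, by cluster from the short-arm end, for TCF19 overexpression (left bar of each pair) and control (right bar); whiskers are 95% Wilson intervals and n is the number of genes. The second cluster shows 73.3% with TCF19 overexpression and 33.3% in control, the fourth 64.9% in both, and the intervals of the libraries overlap in every cluster.

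Inside the genes, more than 1000 bp from both ends, control had more summits. A summit was present inside 148 of the 245 genes with TCF19 overexpression (60.4%; 60.9% of all genes) and inside 183 in control (74.7%; 65.5% of all genes). Both libraries had one in 126 genes (51.4%, against 54.9%), TCF19 overexpression alone in 22 (8.98%, against 6.05%), control alone in 57 (23.3%, against 10.6%) and neither in 40 (16.3%, against 28.4%). The bodies, 6.65 Mb together, held 338 summits with TCF19 overexpression, or 50.8 per Mb (45.5 to 56.5), and 514 in control, or 77.2 per Mb (70.7 to 84.2), a ratio of 0.658. All protein-coding genes had 39.2 per Mb with TCF19 overexpression and 62.2 in control, a ratio of 0.631, and ZNF and ZFP genes of other chromosomes had 50.5 with TCF19 overexpression and 71.0 in control, a ratio of 0.711. Other chromosome 19 genes ran the other way, with 72.4 per Mb with TCF19 overexpression and 60.9 in control, a ratio of 1.19. The difference within the zinc finger genes was not seen when control was cut, by fold, to as many summits as the other list. Control then had inner summits in 150 of them (61.2%, against 50.2% of all genes), at 51.2 per Mb, and 16.9 per Mb inside other chromosome 19 genes. The cut changes both the list length and which summits are kept, and the part of each was not tested.

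Among the clusters, the ratio inside genes varied in the full lists, with no intervals computed for it and no values by cluster for lists of equal length. The sixth cluster held 48.2 summits per Mb inside its genes with TCF19 overexpression and 93.7 in control, the seventh 35.0 with TCF19 overexpression and 77.6 in control, and the fourth 34.0 with TCF19 overexpression and 61.7 in control. The seventh rested on 14 summits with TCF19 overexpression and 31 in control. In the ninth the libraries were closer, 84.6 with TCF19 overexpression and 94.7 in control, as in the third, 75.8 with TCF19 overexpression and 89.6 in control. Over whole cluster spans, intergenic stretches included, there were 67.0 summits per Mb with TCF19 overexpression and 85.8 in control, against 68.0 with TCF19 overexpression and 59.4 in control over the rest of the chromosome. The local background at these summits was 1.84 times the genome average with TCF19 overexpression and 1.55 in control within the spans, and 2.82 with TCF19 overexpression and 2.61 in control in the rest; its part in the difference was not tested.

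**Figure D5:**
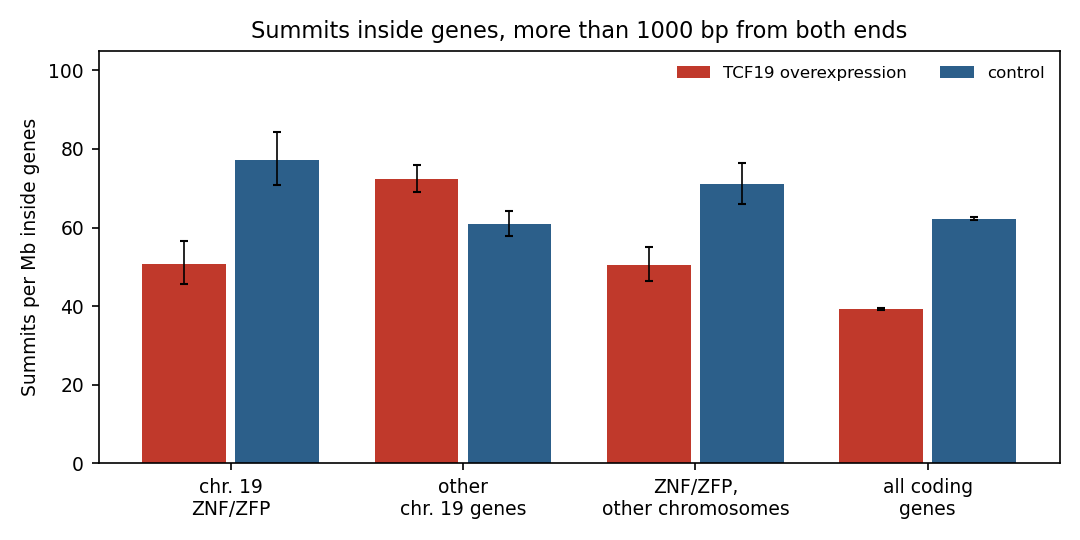
Summits per Mb inside genes, more than 1000 bp from both ends, for TCF19 overexpression (left bar) and control (right bar) in 4 gene sets; whiskers are exact 95% Poisson intervals. The chromosome 19 zinc finger genes stand at 50.8 per Mb with TCF19 overexpression and 77.2 in control, and the other genes of the chromosome at 72.4 with TCF19 overexpression and 60.9 in control.

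The gene with the most inner summits was also the longest. ZNF536, a neuronal regulator of 487995 bp outside the clusters, had 30 inner summits with TCF19 overexpression and 43 in control; without it the ratio over all bodies was 0.654. ZNF331, an imprinted gene, had 11 in each library. ZNF69 had 9 with TCF19 overexpression and 8 in control, and ZNF44 had 7 with TCF19 overexpression and 6 in control. ZNF420 had 4 with TCF19 overexpression and 14 in control, ZNF540 had 4 with TCF19 overexpression and 9 in control, and ZNF568 had 3 with TCF19 overexpression and 8 in control. These last 3 genes lie in the sixth cluster; control had the higher density inside genes in all 9 clusters.

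The genes with a described role did not form a group of their own. ZNF274, which brings SETDB1 to the far ends of other zinc finger genes, had a start summit of 19 reads (11.4 to 29.7) with TCF19 overexpression and 16 (9.15 to 26.0) in control, with 6 inner summits under TCF19 overexpression and 7 in control. ZNF91, which silences SVA retrotransposons, had 11 reads (5.49 to 19.7) at its start with TCF19 overexpression and 6 (2.20 to 13.1) in control. ZNF93, which silences LINE-1 elements, had no end summit with TCF19 overexpression and 1 of 7 reads (2.81 to 14.4) in control. The counting intervals overlapped at ZNF274 and ZNF91, and the single summit at ZNF93 was near the lowest pileup at these gene ends, 6 reads.

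ZNF154, ZNF582 and ZNF671, known for promoter methylation in tumours, each had a start summit in both libraries, as did 45.8% of all genes. ZNF154 had a start summit of 17 reads (9.90 to 27.2) with TCF19 overexpression and 19 (11.4 to 29.7) in control. ZNF582 had 15 reads (8.40 to 24.7) with TCF19 overexpression and 12 (6.20 to 21.0) in control. ZNF671 had 9 reads (4.12 to 17.1) at its start with TCF19 overexpression and 12 (6.20 to 21.0) in control, where a further summit of 16 reads lay beyond its stop. The libraries overlapped in counting error at each of the 3 starts.

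The remaining genes with a described role were marked unevenly. ZNF473, a component of histone pre-mRNA processing, had 17 reads with TCF19 overexpression and 13 in control near its lower end. Both summits lay outside the gene and were also within reach of an end of VRK3. ZNF568, whose mouse counterpart represses a placental Igf2 transcript, had 13 reads with TCF19 overexpression and 8 in control at its start. ZNF675, which binds the signalling adaptor TRAF6, had 9 reads with TCF19 overexpression and 12 in control. ZNF808, needed for human pancreas development, had no end summit with TCF19 overexpression and 13 reads at its start and 13 near its stop in control. ZNF331 had 7 reads beyond its stop with TCF19 overexpression and no end summit in control. Of the other genes named for their role, ZNF649 had 11 reads with TCF19 overexpression and 9 in control, ZNF253 had 14 with TCF19 overexpression and 10 in control, and ZNF432 (12 reads) and ZNF430 (14) were marked with TCF19 overexpression alone.

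The 5 genes named ZFP differed from one another. ZFP30 had 19 reads (11.4 to 29.7) at its start with TCF19 overexpression and 14 (7.65 to 23.5) in control, and ZFP14 had 15 (8.40 to 24.7) with TCF19 overexpression and 11 (5.49 to 19.7) in control at its higher end. ZFP82 had 13 reads (6.92 to 22.2) with TCF19 overexpression and no end summit in control. ZFP28 had 3 inner summits with TCF19 overexpression and 1 in control, but none at an end. ZFP36, which encodes tristetraprolin, a protein of another zinc finger class that binds AU-rich mRNA, had no summit in either library.

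Genes for the partners through which KRAB zinc finger proteins silence chromatin were listed as well. Of 24 such genes, 21 had a gene-end summit with TCF19 overexpression (against 64.8% of all genes) and 16 in control (against 54.6%). The 16 were among the 21. TRIM28, the scaffold that KRAB domains bind and itself a chromosome 19 gene, had 24 reads (15.4 to 35.7) with TCF19 overexpression and 22 (13.8 to 33.3) in control. CBX3, an HP1 protein, had 22 reads (13.8 to 33.3) with TCF19 overexpression and 13 (6.92 to 22.2) in control, and HDAC2, a histone deacetylase, had 25 (16.2 to 36.9) with TCF19 overexpression and 12 (6.20 to 21.0) in control. EHMT2, a histone H3 methyltransferase, had 19 reads (11.4 to 29.7) with TCF19 overexpression and 27 (17.8 to 39.3) in control. The intervals overlapped at all 4 genes. DAXX, EHMT1, PPHLN1, CHD3 and HDAC1 were marked with TCF19 overexpression alone, and SETDB1, SUV39H1 and UHRF1 in neither list. The list of 24 was chosen with earlier results of these data known.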

How the data were processed

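ChIP-seq peak lists of TCF19 in Ishikawa cells were used, 1 library per group, grouped by the genotype label. The submitters' processing notes name hg38, BWA 0.7.12 for alignment and MACS2 2.1.0 for peak calling, and each library had its own list. Parameters, input controls and the treatment of duplicate or multiply placed reads were not given in the sources used here. The deposited columns hold a score, a fold enrichment (a ratio of pileup to local background), the −log10 p-value and q-value (lowest −log10 q 1.3011, a q-value of 0.05) and the summit's offset, which is another kind of number, in bases. The fold and the score are the authors' values; fold was used within its own list.

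Summits were placed from 1 on hg38 and set against RefSeq gene spans of GRCh38.p14, with a window of 1000 bp around each gene end and the rest of the gene as inside. Strand came from the RefSeq promoter table, for 213 of 245 genes. Whole-read pileups were solved from fold and −log10 p-value with a misfit of at most 0.001, for 99.996% of summits with TCF19 overexpression and 99.997% in control; the solver was tested on simulated data. The lowest background served as the genome average. Summits within 100 bp were paired. Wilson and exact Poisson intervals were at 95%, and no test was run. Depth is known only as pileup, since the lists give no read totals.

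Genes were named by a rule: the 10 of highest gene-end fold per list, the 10 of highest fold marked in 1 list alone, the 5 highest and 5 lowest pileup ratios, the 5 with the most inner summits, the highest fold per cluster, and genes with a described role. The genes and lists were chosen with earlier results of these data known. Symbols with a letter or a readthrough part (10) were left out. A planned count of zinc fingers per protein was not made, as no protein sequences were used here. Alternatives were other windows, fold and q-value thresholds, lists of equal length, overlap of intervals, other pairing distances and other cluster gaps. Python 3.11.15, numpy 2.4.6, pandas 2.3.3, scipy 1.17.1 and matplotlib 3.10.9 were used.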

Additional observations from a re-analysis of the deposited data

How the results depend on the processing

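Of 103 alternative values, 77 stayed within 1.5 times the reported count or within its spread, 26 moved and 0 reversed. The TCF19 overexpression list was the shorter, so its values with lists of equal length stayed the same by construction. Only the pileup ratio could be labelled reversed. For the shares by cluster the spread was taken from a single cluster's Wilson interval, which was wide. At a fold of at least 4, gene ends were marked in both libraries at 44 genes; TCF19 overexpression marked 91 starts, 10 stops, 56 higher ends and the inside of 94 genes, and control marked 45 starts, 14 stops, 34 higher ends, 37 lower ends, the inside of 109 genes and, at either end, 66 genes. At a −log10 q-value of at least 3, gene ends were marked in both at 75 genes, the higher end in control at 53, and the stop at 11 genes with TCF19 overexpression and 20 in control. With lists of equal length, 77 genes were marked in both, and control marked 95 at an end, 51 at the higher end, 55 at the lower end, 70 at the start and 21 at the stop. Stop counts also moved with the window, to 10 with TCF19 overexpression and 15 in control within 500 bp and to 52 with TCF19 overexpression and 67 in control within 2000 bp. When any overlap of an interval counted, 30 stops were marked with TCF19 overexpression. These settings change the number of summits or bases counted, and the thresholds also change which summits are kept. The part of each in these shifts was not tested. In each of these settings that gives both libraries, starts were more often marked with TCF19 overexpression, and stops more often in control. Lists of equal length cut only the control list, by fold, so the order of starts could not change there.

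The median pileup ratio ran from 0.23 to 0.31 over the alternatives. The stop counts, the nearest-end count and the use of any listed start were added after seeing the data. Leaving out a replicate was not possible with 1 library per group. No paired analysis was possible because each group has 1 library and no shared replicate numbers. At pileups of 6 to 28 reads, no gene-end pair could be told apart by counting error.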
